A study of Mus musculus with 16 samples.

Results

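The genes described here are 31 genes of skeletal and cardiac muscle, taken by name from a table of 24011 genes and followed in mouse aorta, where E2 (17β-estradiol, the main natural estrogen) was set against vehicle. They encode thick and thin filament proteins of the sarcomere, calcium-handling proteins of the sarcoplasmic reticulum, proteins of energy and oxygen supply, and natriuretic peptides. By the muscle in which each is best known, 14 are skeletal, 10 are cardiac, 3 belong to slow skeletal and cardiac muscle, and 4 to both kinds. They were listed by name, with earlier results of these data known.

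RNA was sequenced from female wild-type C57BL/6 mice that had been ovariectomized at 6 to 7 weeks of age and from which tissue was taken 1 week later. The groups were aorta with 10 nM E2, aorta with ethanol vehicle, liver with 10 nM E2 and liver with ethanol vehicle, with 4 libraries in each, and every tissue had spent 4 h ex vivo in culture medium at the time of harvest. All 4 groups therefore share the loss of the ovaries and the culture, and no library of fresh tissue or of mice with ovaries was among the 16. Libraries of a group are named by the suffix of their column, n1, n2, o1 or o2, which no label explains. Per the labels, 8 libraries started from 50 ng of RNA (Ovation kit), and 8 were selected for poly-A and started from 600 ng taken from a single aorta or piece of liver (TruSeq kit); the series text speaks of tissue of 4 mice in a replicate.

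Striated muscle contracts when calcium released from the sarcoplasmic reticulum binds troponin on the thin, actin filament and frees it to interact with myosin of the thick filament. Heart, slow fibres and fast fibres use different genes of the same families for these parts. The wall of the aorta is made of smooth muscle, which has no sarcomeres or troponin switch; striated cells near it are those of the heart at its root and of the skeletal muscle around the spine.

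In the aorta libraries the genes were present at low levels. None of the 19 that were tested was called for E2, nor was any of all 13698 genes tested. A small set held most of the counts: Ryr2 and Casq1, which release and store calcium, the giant spring protein gene Ttn, the troponin gene Tnnt2, and the actin gene Acta1. Several genes of fast skeletal fibres, among them the fast myosin heavy chains, were close to 0. Heart genes, Myh6 above all, were high in single libraries.

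Counts over genes ran from 6042073 to 19823982 in aorta libraries and from 3896733 to 13078032 in liver libraries. The tissue labels were checked with marker genes, as counts per 1000000 reads counted to genes. The sum of 18 smooth muscle genes was 20542 to 37727 in aorta with E2 and 21119 to 27138 in aorta with vehicle, against 493.0 to 1842 in liver with E2 and 693.4 to 1707 in liver with vehicle. All 31 striated muscle genes together gave 179.6, 216.7, 227.3 and 368.9 counts per 1000000 in the E2 libraries n1, n2, o1 and o2 of aorta, and 182.2, 178.8, 570.7 and 334.8 in the vehicle libraries in the same order. In liver the same sum was 39.1 to 60.9 with E2 and 45.3 to 68.2 with vehicle. Every aorta library thus stood above every liver library in this sum, and vehicle o1 stood above the other aorta libraries. In such bulk samples, fewer cells of a type and less RNA per cell cannot be told apart.

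**Figure D1:**
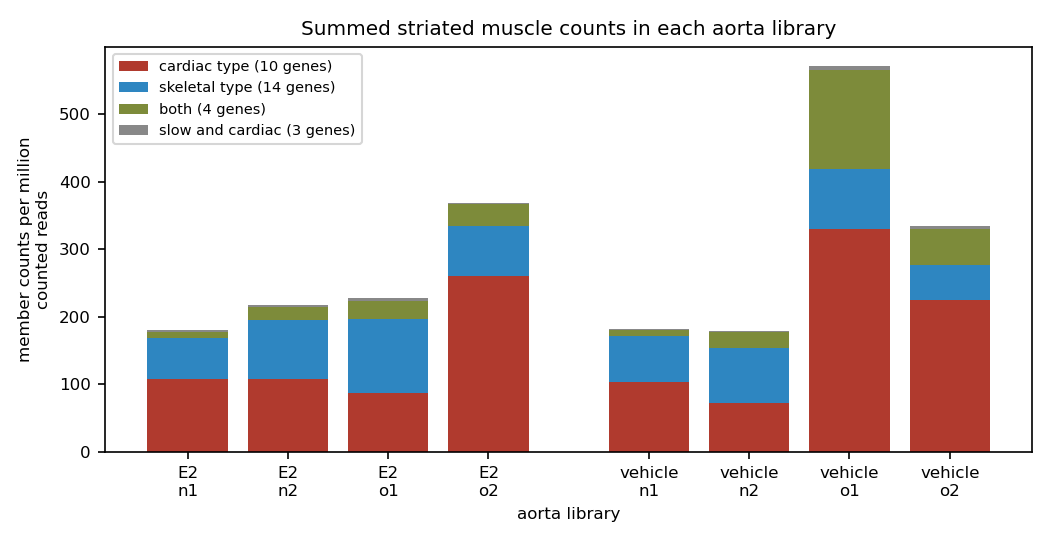
Counts per 1000000 of the 31 genes, relative to all reads counted to genes (vertical axis), in each of the 8 aorta libraries, stacked by the muscle in which each gene is best known. The 4 n libraries lie between 178.8 and 216.7, and vehicle o1 is the highest at 570.7.

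The promoters of 5 genes are shown because their levels set single libraries or the n and o libraries apart in what follows. They are the genes for alpha cardiac myosin (Myh6), the atrial myosin light chain (Myl7), cardiac troponin T (Tnnt2), cardiac actin (Actc1) and skeletal actin (Acta1). Each line holds the 250 bases before the gene's start in RefSeq (build GRCm38.p6, which is not the mm9 build named for the counts), written 5′ to 3′ on the gene's strand; for Tnnt2 it is the first of the starts listed. Capitals mark 3 motifs of muscle promoters, searched on both strands: the MEF2 box, the CArG box bound by serum response factor, and the M-CAT motif CATTCC bound by TEAD factors.
Myh6, chr14:54966608-54966857 (minus strand): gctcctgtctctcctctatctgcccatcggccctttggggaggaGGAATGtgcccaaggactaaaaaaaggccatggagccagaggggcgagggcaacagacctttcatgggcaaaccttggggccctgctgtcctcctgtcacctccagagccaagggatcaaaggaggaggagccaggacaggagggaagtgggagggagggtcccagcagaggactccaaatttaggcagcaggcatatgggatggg
Myl7, chr11:5898783-5899032 (minus strand): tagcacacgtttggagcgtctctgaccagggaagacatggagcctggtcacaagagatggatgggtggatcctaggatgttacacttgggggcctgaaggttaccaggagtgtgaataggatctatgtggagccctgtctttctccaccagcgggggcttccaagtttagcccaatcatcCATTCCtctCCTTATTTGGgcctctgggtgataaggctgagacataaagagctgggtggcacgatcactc
Tnnt2, chr1:135836084-135836333 (plus strand): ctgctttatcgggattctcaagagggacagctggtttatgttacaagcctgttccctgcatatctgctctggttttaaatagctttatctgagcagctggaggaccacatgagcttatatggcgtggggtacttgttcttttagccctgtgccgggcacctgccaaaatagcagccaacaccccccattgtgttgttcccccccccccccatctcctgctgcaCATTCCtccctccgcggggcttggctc
Actc1, chr2:114052876-114053125 (minus strand): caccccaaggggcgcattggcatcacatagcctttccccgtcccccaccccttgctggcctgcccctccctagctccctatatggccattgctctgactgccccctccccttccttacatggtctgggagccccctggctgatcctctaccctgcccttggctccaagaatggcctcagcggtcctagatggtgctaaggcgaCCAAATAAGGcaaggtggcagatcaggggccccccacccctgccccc
Acta1, chr8:123894776-123895025 (minus strand): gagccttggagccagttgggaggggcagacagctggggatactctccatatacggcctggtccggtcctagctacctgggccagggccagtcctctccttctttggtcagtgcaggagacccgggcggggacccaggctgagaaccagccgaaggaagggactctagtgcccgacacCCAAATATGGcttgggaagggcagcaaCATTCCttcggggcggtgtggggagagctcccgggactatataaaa

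In these windows the capitals show an M-CAT motif in Myh6, Myl7, Tnnt2 and Acta1 and a CArG box in Myl7, Actc1 and Acta1. Counted from the start, the M-CAT motif and the CArG box begin at −70 and −61 in Myl7 and at −46 and −73 in Acta1. RefSeq promoters were matched for 29 of the 31 genes, all but Tnnt3 and Tnni2. Among these 29 genes a CArG box was found in 4 (Myh4, Myl7, Acta1 and Actc1), against 1.62% of 27025 genes with a promoter. A MEF2 box was found in 5, against 1.99%, and an M-CAT motif in 11, against 14.4%. The E-box CANNTG of the MyoD family was found in 24, against 69.3%, the TATA motif TATAAA in 8, against 14.3%, and the GATA motif GATAAG in 1, Myl7, against 7.60%. The estrogen response element GGTCANNNTGACC was found in none of the 29, against 0.0666%, and its half-site GGTCA in 12, against 38.4%; every full element also holds a half-site. A match is only a stretch of letters in a window.

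Of the 31 genes, 22 had counts in all 8 aorta libraries and 8 had fewer than 50 counts over the 8 together. Levels of different genes were compared per kilobase of exon (CPM, counts per 1000000 on normalized library sizes, divided by exon length). In the n libraries of aorta the highest mean levels were those of Acta1, at 22.5 CPM per kilobase, and Casq1, at 8.26, followed by Eno3 at 3.80 and Myl7 at 2.96. In the o libraries they were those of Casq1, at 45.8, and Actc1, at 8.76, followed by Tnnt2 at 6.97, Ryr2 at 6.28 and Myh6 at 4.98. Ttn, whose exons sum to 116.8 kilobases, had only 0.0238 CPM per kilobase in n libraries and 0.649 in o libraries.

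Among skeletal genes the levels were uneven. Casq1 had 4096 counts over the 8 aorta libraries, and fast troponin T (Tnnt3) and fast troponin C (Tnnc2) had 298 and 156, with counts in all 8. Other genes of fast fibres were far lower. Over all 8 aorta libraries the fast myosin heavy chains Myh1, Myh2 and Myh4 had 6, 14 and 10 counts, fast troponin I (Tnni2) had 18, and the fast-fibre calcium buffer Pvalb had 9. Between 26.5% and 33.7% of the 36-base stretches of these 3 myosin transcripts also occur in other genes, mostly in each other, so that reads may be split among them. Muscle creatine kinase (Ckm) had 60 counts, the calcium pump Atp2a1 had 54, the light chain Mylpf 63 and the release channel Ryr1 64. Among heart genes, the ventricular light chain Myl2 had 3 counts, all in E2 libraries, and the natriuretic peptides Nppa and Nppb had 49 and 11. These 12 genes fell below the filter on low counts in aorta and were not tested for E2.

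The other 19 genes were tested: 8 of 10 cardiac, 6 of 14 skeletal, 2 of 3 slow skeletal and cardiac, and 3 of 4 of both kinds. With E2 against vehicle in aorta, none of the 19 passed an adjusted p under 0.05, 7 were higher and 12 lower in sign, and the median log2 difference was −0.24. Over all 13698 genes tested the median was −0.01, and the share called was 0%. An unadjusted p under 0.05 was reached by 2 of the 19, Ttn and Tnnc2, and by 3.61% of all genes (edgeR, quasi-likelihood, p-values adjusted by the method of Benjamini and Hochberg, 4 libraries a group). DESeq2 called 24 genes over the table and likewise 0 of the 19. Markers of some other cells leaned the same way. Of hepatocyte genes tested, 9 of 9 were lower with E2 (median −0.84), as were 12 of 12 lymphocyte genes (median −1.46). So were 10 of 10 fibroblast genes (median −0.12). Others did not: 13 of 18 smooth muscle genes (median 0.06) and 11 of 14 brown adipocyte genes (median 0.20) were higher. Of 8 Schwann cell and nerve genes 4 were higher and 4 lower (median 0.01). Of 10 endothelial genes 4 were higher and 6 lower (median −0.07). None of these marker genes was called. The sum of the 12 lymphocyte genes was 29.1 to 97.0 counts per 1000000 with E2 and 21.0 to 459.9 with vehicle, highest in vehicle n2 and lowest in vehicle o1, where Ms4a1 was at 0. Their part in the values of the muscle genes was not tested. For none of the 19 did the E2 and vehicle libraries fall into ranges that did not overlap. The share of all genes with such ranges was not counted. Each group also mixes n and o libraries, between which 61% of all genes were called, so this overlap is no measure of E2.

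**Figure D2:**
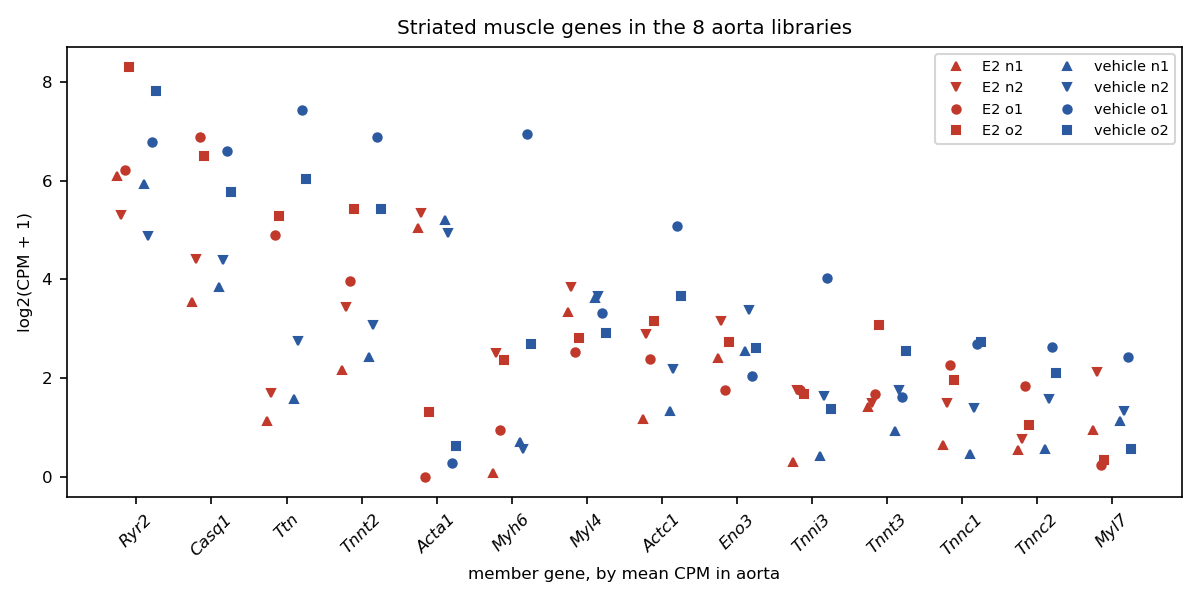
Levels of the 14 genes chosen by a fixed rule, as log2(CPM + 1), in each E2 library (red, left of each name) and each vehicle library (blue, right) of aorta; the marker shape gives the suffix. Each group mixes n and o libraries. The libraries of both treatments overlap for every gene, and for Acta1 the n libraries stand far above the o libraries.

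Of the 19 genes, Ttn of the thick filament gave the largest difference. Ttn, which encodes the elastic protein titin that runs from the edge to the middle of each sarcomere, had 1.20, 2.23, 28.8 and 38.3 CPM in the E2 libraries n1, n2, o1 and o2, and 1.99, 5.71, 171.7 and 64.5 CPM in the vehicle libraries in the same order. Its level was lower with E2 in 4 of 4 pairs of the same suffix, although the groups overlap because both hold low n and high o libraries. The log2 difference was −1.41 ± 0.41 (SE), with an unadjusted p of 0.00756 and an adjusted p of 1.00 (edgeR). With the suffix as a replicate block the difference was −1.42 and the adjusted p 0.159 (edgeR).

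Myh6, the main myosin heavy chain of the adult mouse heart, had 0.0461, 4.65, 0.912 and 4.14 CPM in the E2 libraries n1, n2, o1 and o2, and 0.616, 0.476, 123.4 and 5.48 CPM in the vehicle libraries. A single library, vehicle o1, held most of its counts, and n2 was the highest of the E2 libraries. The fitted difference was −0.43 ± 1.52, and it had the opposite sign without vehicle o1 (1.14) or E2 o1 (1.02). As o1 is a batch level of its own, leaving out either of its libraries takes the pair out of the estimate. The slow myosin gene Myh7 gave 0.68 ± 0.67; 26.3% of the 36-base stretches of Myh6 and 20.6% of those of Myh7 occur in other genes, for the most part in one another.

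The light chain genes gave smaller values. Myl4, the atrial and embryonic essential light chain, had 9.09, 13.4, 4.74 and 5.98 CPM with E2 and 11.3, 11.6, 8.96 and 6.48 CPM with vehicle, a log2 difference of −0.24 ± 0.25. Its 8 libraries stayed within a narrow range, whichever the treatment. Myl7, the atrial regulatory light chain, had 0.923, 3.35, 0.182 and 0.264 CPM with E2 and 1.19, 1.52, 4.38 and 0.468 CPM with vehicle, a difference of −0.43 ± 0.79 that was 0.35 without either o1 library. The fast skeletal light chain Myl1 gave 0.59 ± 0.41.

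Among thin filament genes, Acta1 gave a small difference. This gene for skeletal alpha-actin had 32.1, 39.9, 0 and 1.496 CPM in the E2 libraries n1, n2, o1 and o2, and 36.1, 29.9, 0.208 and 0.535 CPM in the vehicle libraries, a difference of 0.32 ± 0.31. Its n libraries were high and its o libraries near 0 with either treatment. Actc1, for cardiac alpha-actin, had 1.25, 6.47, 4.19 and 7.92 CPM with E2 and 1.52, 3.52, 32.9 and 11.6 CPM with vehicle. Here vehicle o1 was the highest library, and the difference of −0.49 ± 0.71 was 0.23 without it or without E2 o1.

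The troponin genes, which encode the calcium switch of the thin filament, differed in which library was highest. Tnnt2, cardiac troponin T, had 3.46, 9.82, 14.6 and 42.0 CPM with E2 and 4.41, 7.42, 117.5 and 42.1 CPM with vehicle, a difference of −0.59 ± 0.57 that was 0.12 without either o1 library. Tnni3, cardiac troponin I, had 0.231, 2.37, 2.37 and 2.20 CPM with E2 and 0.332, 2.09, 15.4 and 1.60 CPM with vehicle, a difference of −0.43 ± 0.86 that was 0.28 without vehicle o1 and 0.29 without E2 o1. Vehicle o1 was the highest library of both genes, while the other vehicle libraries lay within or near the range with E2. Tnnc2, fast skeletal troponin C, had 0.461, 0.698, 2.55 and 1.06 CPM with E2 and 0.474, 2.00, 5.21 and 3.27 CPM with vehicle. It was lower with E2 in 4 of 4 pairs, but in the n1 pair through library scaling only, as both libraries had 10 counts. The log2 difference was −1.17 ± 0.49, with an unadjusted p of 0.0393 and an adjusted p of 1.00 (edgeR). The other troponin genes tested gave −0.23 ± 0.55 for Tnnc1 (slow and cardiac troponin C), −0.28 ± 0.44 for Tnnt1 (slow troponin T) and 0.27 ± 0.38 for Tnnt3 (fast troponin T), with the sign of Tnnc1 turning without vehicle o2 (0.047) or E2 o2 (0.050). Tnnc1 and Tnnt1 were highest in vehicle o2 and Tnnt3 in E2 o2.

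Of the 6 calcium-handling genes, Ryr2 and Casq1 had the highest mean CPM of all 31, while the other 4 ranked 17 or lower. Ryr2, the release channel of heart and also a channel of vascular smooth muscle, had 68.0, 38.7, 73.1 and 314.8 CPM with E2 and 60.4, 28.5, 109.0 and 226.0 CPM with vehicle, a difference of 0.11 ± 0.30. Both o2 libraries were the highest of their group, and the difference was −0.01 without either of them, −0.088 without vehicle n2 and −0.091 without E2 n1. Casq1, the skeletal calsequestrin that buffers calcium in its store, had 10.7, 20.4, 116.9 and 89.9 CPM with E2 and 13.4, 19.98, 96.5 and 54.1 CPM with vehicle, a difference of 0.21 ± 0.26. Both of its n libraries were low and both o libraries high in each group. The cardiac calsequestrin Casq2 gave −0.93 ± 0.57.

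Of the genes for oxygen and energy supply, Mb, the oxygen store myoglobin, had 0.600, 2.28, 0.365 and 2.82 CPM with E2 and 0.569, 0.856, 10.2 and 1.00 CPM with vehicle; it lay outside the naming rule and is shown after its values were seen. Its difference was 0.15 ± 0.92, which was 1.20 without vehicle o1, −0.66 without E2 n2, −0.42 without either o2 library and −0.22 without vehicle n1. Eno3, the muscle form of the glycolytic enzyme enolase, had 4.34, 7.86, 2.37 and 5.63 CPM with E2 and 4.84, 9.42, 3.13 and 5.08 CPM with vehicle, a difference of −0.15 ± 0.33, with the sign turning without vehicle n2 (0.13) or E2 n1 (0.06). Neither gene differed beyond its spread. Exons of Mb overlap Apol6 on the opposite strand, those of Tnnc2 overlap Ube2c, and those of Ttn, Casq1, Myl4, Myh6 and Myh7 overlap predicted or noncoding genes on the opposite strand. With the strand setting not given, reads from such an overlap cannot be assigned to one of the genes. Exons of Tnni3 overlap Dnaaf3 on the same strand, where a known strand setting would not help. Of the 36-base stretches of Tnni3, 2.37% occur in Dnaaf3.

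Fitted alone, the n and o libraries gave different values for E2, but the difference was not called when tested directly. In the 4 o libraries alone, 4 of 16 genes tested fell and 0 rose: Myh6 by a log2 difference of −3.10, Ttn by −1.62, Actc1 by −1.61 and Tnnt2 by −1.38, with adjusted p of 1.31e-15, 1.01e-08, 9.17e-04 and 6.74e-05 (edgeR); 33 of 12015 genes (0.275%) were called there. In the 4 n libraries alone, 0 of 24 genes were called and 0 of 14073 over the table (0%); Ttn gave −1.12, while Myh6 gave 2.08, Actc1 0.66 and Tnnt2 0.19. Fits of 4 libraries estimate the spread from few of them. The o fit held o1 and o2 as batch levels and was thus paired, while the n fit had no batch term. The calls of these fits therefore come from unlike models. In the o2 pair alone, Myh6 had 4.14 CPM with E2 against 5.48 CPM with vehicle, and Tnnt2 had 42.0 against 42.1 CPM. Actc1 had 7.92 against 11.6 CPM there, and Ttn had 38.3 against 64.5 CPM. The effect of E2 in n libraries minus that in o libraries had an unadjusted p under 0.05 for 3 of 19 genes, against 0.723% of all genes: Myh6 at 6.60 ± 2.19, Myl7 at 3.85 ± 1.54 and Actc1 at 2.49 ± 1.10. None of the 19 passed the adjusted threshold, nor did any of the 13698 genes (0%; edgeR, adjusted p of 1.00). For Myh6 this value was 3.12 without vehicle o1 and 1.36 without E2 n2.

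**Figure D3:**
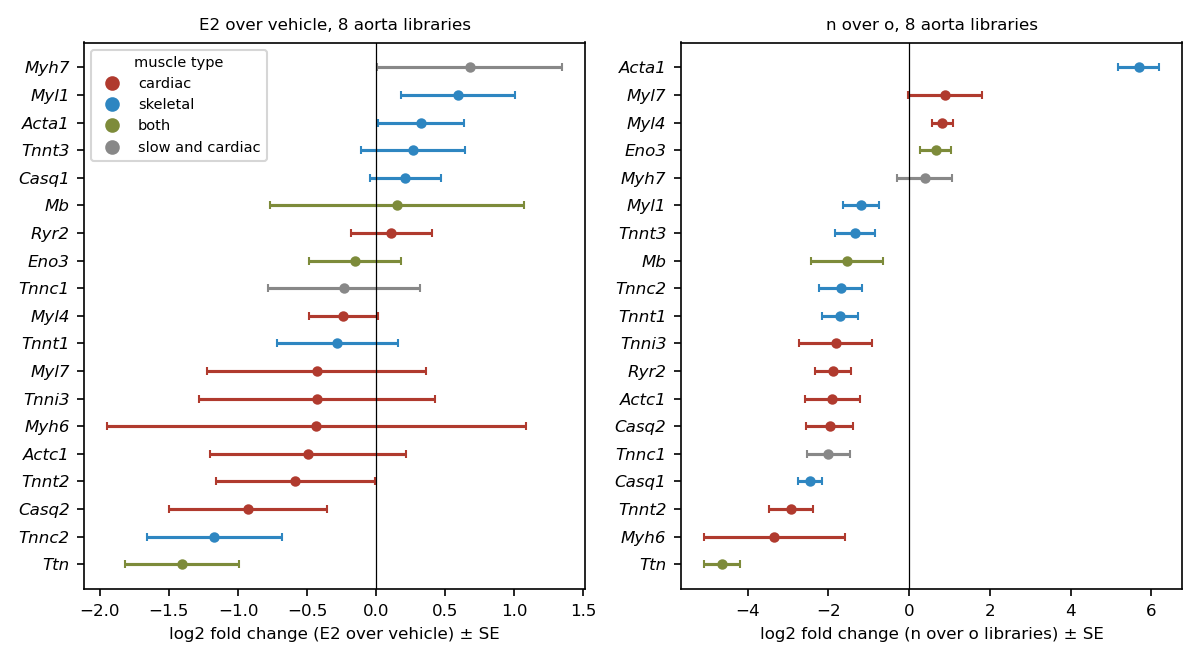
Log2 fold change with its standard error (horizontal axis) for each of the 19 genes tested in aorta, E2 over vehicle on the left and n over o libraries on the right, coloured by muscle type. Ttn is the lowest in both panels, at −1.41 and −4.64, and Acta1 is the highest on the right at 5.69.

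In liver, 7 of the genes passed the filter and none was called for E2 (0% of 11726 genes). Eno3 was the only one with an unadjusted p under 0.05, which 4.28% of all genes had. It had 31.4, 27.6, 9.72 and 13.9 CPM in the E2 libraries n1, n2, o1 and o2 of liver and 18.2, 25.3, 5.66 and 6.13 CPM in the vehicle libraries, higher with E2 in each pair, a log2 difference of 0.70 ± 0.27 with an adjusted p of 0.939 (edgeR). The E2 effect in aorta minus that in liver was tested for 19 genes, of which none was called (0% of 14190) and none had an unadjusted p under 0.05, which 5.36% of all genes had. The values with the lowest p were −0.83 ± 0.42 for Eno3 and −1.24 ± 0.63 for Ttn.

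The wider genes of striated muscle were followed in 4 lists, 107 genes in all, which hold none of the 31. Of 39 further sarcomere genes 27 were tested with E2 in aorta, 12 higher and 15 lower in sign, with a median log2 difference of −0.12. At the lower end stood Lmod2, a leiomodin that builds actin filaments in heart muscle, at −1.58 ± 1.03, Tmod4 at −1.02 ± 0.64 and Xirp2 at −0.99 ± 0.77. At the upper end stood the filament cap Tmod1 at 1.79 ± 0.26, the skeletal myosin light chain kinase Mylk2 at 0.90 ± 0.20 and Ankrd23 at 0.48 ± 0.27. Both ends of this list thus hold a tropomodulin, Tmod1 and Tmod4.

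Of 24 further genes of excitation and calcium release 15 were tested, 8 higher and 7 lower, with a median of 0.06. The calcium-dependent kinase gene Camk2b gave 1.67 ± 0.27, Srl, a protein of the calcium store, 0.64 ± 0.55 and Jph2, which ties that store to the cell membrane, 0.63 ± 0.18. Pln, the inhibitor of the calcium pump, gave −0.86 ± 0.52, Trdn −0.54 ± 0.53 and Cav3 −0.20 ± 0.27. Of 17 genes of muscle metabolism 13 were tested, 11 higher and 2 lower, with a median of 0.18, from 1.07 ± 0.44 for the mitochondrial carrier Ucp3, 0.49 ± 0.39 for Fbp2 and 0.46 ± 0.20 for the glucose transporter Slc2a4 to 0.04 ± 0.28 for Phkg1, −0.09 ± 0.42 for Pgam2 and −0.25 ± 0.28 for the fatty acid binding protein Fabp3. Of 27 regulators 14 were tested, 10 higher and 4 lower, with a median of 0.22, from 2.55 ± 0.36 for Klhl31, 2.06 ± 0.45 for Fbxo40 and 0.98 ± 0.32 for Fbxo32, a ubiquitin ligase of muscle wasting, to −0.10 ± 0.26 for Popdc2 and −0.42 ± 0.39 for the heart transcription factor Tbx5. None of these values passed the adjusted threshold.

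No gene of the 4 lists was called in this test (0% of all genes, edgeR). With the replicate block, 4 of them were: Klhl31 at 2.54, Fbxo40 at 2.04, Tmod1 at 1.84 and Camk2b at 1.70 (log2), with adjusted p of 0.0187, 0.0390, 0.00874 and 0.0172 (edgeR), while none of the 31 genes was; over the table the block called 12 of 13698 genes (0.0876%). Both Klhl31 and Fbxo40 belong to families that hold adaptors of ubiquitin ligases. The lists were drawn up with earlier results of these data known, so their counts are a description.

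Aorta was compared with liver in the libraries of each treatment, at an adjusted p under 0.05 and an absolute log2 difference over 1. With E2, 12 of the genes could be tested, 5 were higher in aorta (26.3% of all genes were) and 2 lower (22% were), or 7 against 48.3% in either direction. With vehicle, 11 could be tested, 5 were higher (24.1% of all genes) and 1 lower (23.4%), or 6 against 47.5% in either direction. Some of these genes passed the filter through their aorta counts. In liver, Ryr2 had 3 counts with E2 and 15 with vehicle, Actc1 had 8 and 6, and Tnnt3 had 2 with E2. Such a gene entered the test because it was high in aorta. The shares of calls among 12 and 11 genes are therefore a description only. So are the calls and p-values of Ryr2, Actc1 and Tnnt3 that follow. Without the o1 libraries 8 genes were called higher with E2.

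Ryr2 stood furthest apart. It had 38.7 to 314.8 CPM in aorta with E2, against 0 to 0.486 CPM in liver with E2, and 28.5 to 226.0 CPM in aorta with vehicle, against 0 to 1.15 CPM in liver with vehicle. Only 3 counts of Ryr2 were seen in the E2 libraries of liver, a ratio of aorta over liver of 1070.3 with a 95% counting interval of 366.1 to 5191 (exact binomial, counting error only). That ratio, like the CPM, rests on library sizes normalized within each tissue, so it does not cover scaling between tissues. The fit, normalized over both tissues together, gave a fold of 659.9 with E2. With vehicle the log2 difference was 7.70 ± 0.61 (adjusted p 8.27e-07, edgeR).

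Casq1 was higher in aorta by 4.02 ± 0.64 with E2 and by 3.65 ± 0.39 with vehicle, Actc1 by 3.61 ± 0.93 and 4.71 ± 0.93, and Myl4 by 1.79 ± 0.51 and 2.11 ± 0.65, with adjusted p of 0.0174 or less in each case (edgeR). Tnnt3 passed the filter with E2 only and was called there, with 172 counts in aorta and 2 in liver, a ratio of 44.0 with a counting interval of 11.98 to 365.9. Its ratio has the same scaling within each tissue, and the fit gave a fold of 31.8. Ttn was called with vehicle, at 1.76 ± 0.50, and gave 0.61 ± 0.52 with E2. The calls of Myl4 and Ttn were lost when a single suffix was left out, Myl4 with E2 without n1 (1.90) or n2 (1.39) and with vehicle without n2 (2.09), and Ttn without o1 (1.56).

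Eno3 was the gene that liver held more of. Its log2 difference, aorta over liver, was −2.52 ± 0.39 with E2 and −1.77 ± 0.42 with vehicle (adjusted p 0.000488 and 0.00375, edgeR). Tnnt1, slow troponin T, was lower in aorta with E2, at −1.63 ± 0.58, a call lost without o1 (−1.85), n1 (−1.52) or n2 (−1.10). Tnnt2, Tnni3, Tnnc1 and Myl7 were not called in either comparison, with differences between −0.97 and 0.53. Tnnt2 had 5.35, 10.3, 2.92 and 9.20 CPM in the E2 libraries of liver, which overlap those of aorta.

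**Figure D4:**
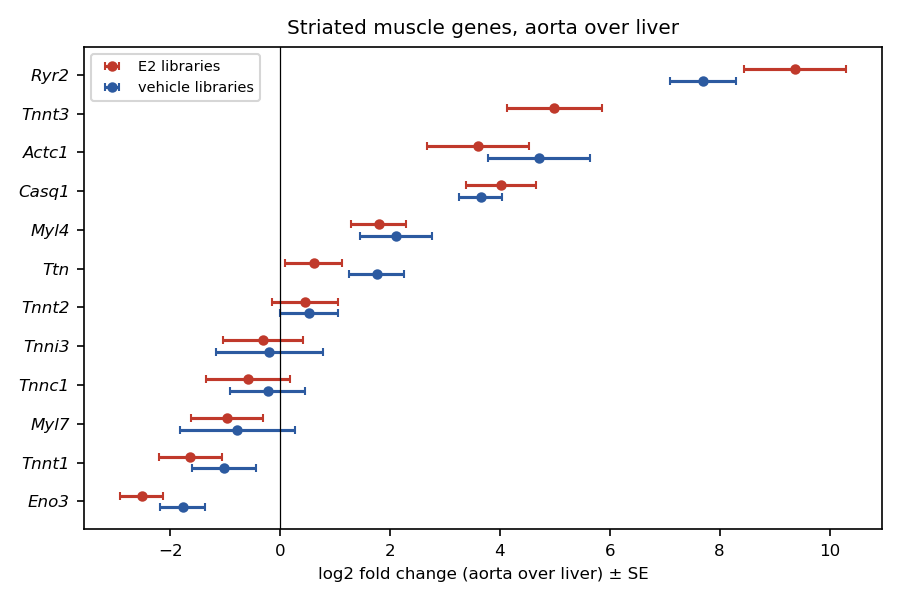
Log2 fold change of aorta over liver with its standard error (horizontal axis) for each of the genes that could be tested, in E2 libraries (red) and in vehicle libraries (blue). Ryr2 lies furthest to the right and Eno3 furthest to the left; the red points of Ryr2 and Tnnt3 rest on 3 and 2 liver counts and depend on the prior count of the fit.

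The n and o libraries of aorta were compared over both treatments, at the same thresholds. Of 19 genes, 1 was higher in n libraries (33% of all genes were) and 11 were lower (28.1% were), 12 in all against 61% of all genes in either direction. The median log2 difference was −1.71 over the 19 and 0.13 over all genes. The gene that was higher, Acta1, differed by 5.69 ± 0.51 (adjusted p 2.56e-06, edgeR). All its n libraries were at 29.9 CPM or more and all its o libraries at 1.496 CPM or less. In the o libraries it had 0 and 17 counts with E2 and 1 and 8 with vehicle. It thus passed the filter on low counts through its n libraries, and its call is a description only. Its transcript shares 3.26% of its 36-base stretches with other genes.

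Ttn differed most among the genes that were lower, at −4.64 ± 0.45, followed by Tnnt2 at −2.92 ± 0.55 and Casq1 at −2.46 ± 0.30 (adjusted p 4.35e-06, 0.000544 and 2.48e-05, edgeR). Tnnc1, Casq2, Actc1 and Ryr2 differed by −2.003, −1.97, −1.90 and −1.89, and Tnnt1, Tnnc2, Tnnt3 and Myl1 by −1.71, −1.70, −1.34 and −1.20. Genes of the same filament thus went opposite ways, with skeletal actin higher and cardiac actin lower in n libraries. Without the n1 libraries only 4 genes were called lower, and the values of Actc1, Tnnc1 and Tnnc2 were then −0.95, −1.18 and −1.08; without o2, Ryr2 gave −0.92 and Tnnt3 −0.39, and neither was called. Leaving out both n2 libraries moved Actc1 to −3.01 and Tnnc1 to −3.09. Over the 12 ways of leaving out 1 suffix or 1 library, Acta1, Ttn, Tnnt2 and Casq1 kept their calls in all, while Myl1 lost its call in 9, Tnnt3 in 6, Actc1 in 5, Casq2 in 3 and Tnnc2 in 2.

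Markers of other cells also differed between n and o libraries of aorta. The sum of 10 Schwann cell and nerve genes was 142.2 and 150.3 counts per 1000000 in the E2 n libraries, against 544.9 and 985.4 in the E2 o libraries, and 153.6 and 151.6 in the vehicle n libraries, against 625.9 and 662.5 in the vehicle o libraries. That sum rests on part of its list: of 8 such genes tested 4 were higher and 4 lower in n libraries, with 2 called each way and a median log2 difference of 0.13. The sum of 14 brown adipocyte genes was 2079 and 1477 in the E2 n libraries, against 360.0 and 725.5 in the E2 o libraries, and 1465 and 1275 in the vehicle n libraries, against 338.8 and 617.7 in the vehicle o libraries. Of the defining genes Plin5 was at 0 in vehicle o1, Mag in E2 o2, and Pmp2 in 4 libraries of both letters. Their part in the differences of the muscle genes was not tested. Whatever else separates the letters cannot be told apart from them here, and no label says whether the letters stand for the kits.

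In 2 of the 4 pairs of libraries of one group and one letter, several heart genes stood high together in the same library. This pattern was picked out after the values were seen, so it is described with no test. Vehicle o1 exceeded vehicle o2 in CPM by a ratio of 22.5 for Myh6, 10.2 for Mb, 9.61 for Tnni3, 9.35 for Myl7, 2.83 for Actc1 and 2.79 for Tnnt2. E2 n2 exceeded E2 n1 by a ratio of 101 for Myh6, which had a single count in E2 n1, and of 10.3 for Tnni3, 5.19 for Actc1, 3.80 for Mb, 3.63 for Myl7 and 2.84 for Tnnt2. These were the 6 of 19 genes with both ratios above 2, and they include 5 of the 8 cardiac genes tested and 0 of the 6 skeletal ones. Of all 13698 genes, 146 (1.07%) had both ratios above 2. In the other pairs the 6 genes went different ways. Vehicle n2 over n1 gave 6.31 for Tnni3 and 2.32 for Actc1, but 0.772 to 1.68 for the other 4 genes. E2 o2 over o1 gave 7.72 for Mb, 4.54 for Myh6 and 2.88 for Tnnt2, but 0.928 for Tnni3, 1.45 for Myl7 and 1.89 for Actc1.

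**Figure D5:**
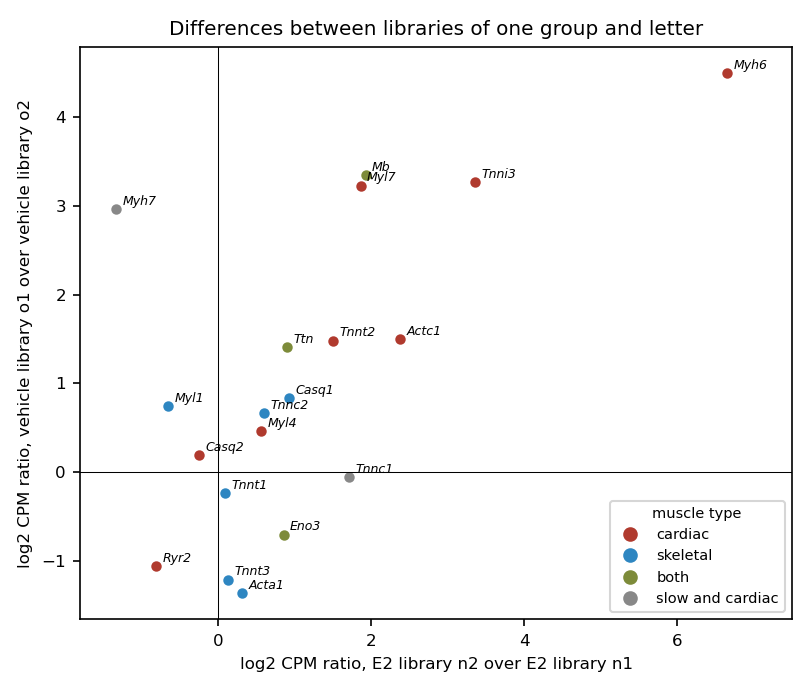
Ratio of CPM of E2 library n2 over n1 (horizontal axis) and of vehicle library o1 over o2 (vertical axis), both as log2, for each of the 19 genes tested in aorta, coloured by muscle type. Myh6 lies farthest to the upper right, followed by Tnni3, and the skeletal genes lie close to the centre.

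Ryr2 did not share this pattern: it was lower in vehicle o1 than in vehicle o2 and lower in E2 n2 than in E2 n1. Nor did Casq2, with vehicle o1 over o2 at 1.15 and E2 n2 over n1 at 0.840, or Myl4, at 1.38 and 1.48. Of the slow skeletal and cardiac genes, Tnnc1 had ratios of 0.965 and 3.28, and Myh7 of 7.79 and 0.396. Without Ryr2, the cardiac genes summed to 20.3, 55.3, 24.4 and 43.6 counts per 1000000 in the E2 libraries n1, n2, o1 and o2 and to 26.3, 35.7, 243.8 and 54.2 in the vehicle libraries, so vehicle o1 was the one library that stood far from the rest. The 14 skeletal genes summed to 61.4, 88.3, 110.3 and 73.2 with E2 and to 67.7, 81.2, 88.0 and 52.3 with vehicle, and vehicle o1 was not the highest there. Of the 27 further sarcomere genes tested, 4 were above 2-fold in vehicle o1 over o2, and the median ratio was 0.919. Lmod2 and Xirp2, picked after their values were seen, were among the 4, at 23.3 and 11.9 CPM, against 3.88 and 2.07 CPM in vehicle o2.

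Both o1 libraries also held more of the hepatocyte genes than the other aorta libraries. The sum of 12 such genes was 422.0 counts per 1000000 in E2 o1, against 108.7 to 129.0 in the other E2 libraries, and 627.6 in vehicle o1, where Tat was at 0, against 165.7 to 193.5 in the other vehicle libraries. Myh6, at 0.912 CPM, and Myl7, at 0.182 CPM, were not high in E2 o1. Of 9 hepatocyte genes tested in aorta, 6 were above 2-fold in vehicle o1 over o2, with a median ratio of 3.77, against 978 of all 13698 genes, while none was in E2 n2 over n1. In liver this sum was 58110 or more. Their part in the high heart genes of vehicle o1 was not tested.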

How the data were processed

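RNA-seq was done on 16 libraries, 4 in each of 4 groups of tissue and treatment. The submitters' processing notes name Bowtie 0.12.5, HTSeq 0.4.5p7, edgeR 3.4.2 and the build mm9; for the gene annotation and the strand setting, the sources used here give nothing. The deposited values are counts per gene, entered as estimated counts because a percentage closes each column; gene values were all whole numbers and needed no rounding. Another 8 lines name no gene and were left out; reads in no feature made up 48.0% to 75.2% of a library. Column names give tissue, treatment and an unexplained suffix, so columns were assigned to groups only.

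The test was that of edgeR 4.0.16, run in R 4.3.3 (glmQLFit, glmQLFTest), over all genes, with Benjamini-Hochberg adjustment and a threshold of 0.05. For the tests, TMM was computed over the libraries of each comparison, and filterByExpr had minimum count 10 and minimum total 15. The E2 comparisons had a batch of 3 levels (o1, o2 and n) as a covariate. These levels are the library batches of the labels read onto the suffixes, an assumption, since no label explains a suffix. Comparisons of tissues and of letters also needed an absolute log2 difference over 1. SE is the absolute log2 difference over the square root of F. CPM are on TMM library sizes by tissue. The n and o comparison had treatment as a covariate. The labels do not say whether libraries of a suffix come from one animal, and p-values measure the spread between these libraries only. Depth limits the genes with few counts; intervals cover counting error only.

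Same-suffix E2 and vehicle libraries deviated together in aorta (r across genes 0.889 to 0.921, and 0.486 for o and 0.420 for n with the letter mean removed) and in liver (0.850 to 0.908, and 0.267 and −0.0531). Pairing by every suffix entered only in the alternative with the replicate block. The main E2 fits of both tissues held o1 and o2 as batch levels of their own and n1 and n2 as a shared level. The members and lists were chosen with earlier results of these data known. Values per library are given for tested members among the 12 highest by mean CPM in aorta, for those with an unadjusted p under 0.05 in the aorta E2 comparison or in its difference between letters, and for any called there or between tissues; of each other muscle list the 3 highest and 3 lowest are named, except a gene that is not reported here. Exon lengths and 36-base sharing came from a GENCODE mouse annotation; promoters came from RefSeq. The tests were checked on simulated data. The alternatives were DESeq2 1.42.0, other filters and scalings, another batch, a replicate block, each letter alone, and leaving out each suffix; leaving out single aorta libraries was added after seeing the data.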

Additional observations from a re-analysis of the deposited data

Results flagged for a closer look

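In 38 sets of 4 aorta libraries, 1 for each tested gene and treatment, a library was looked at again if its gap to the nearest other one filled most of the range of the set (past Dixon's 95% limit for 4 values). Among 4 like libraries chance gives this in about 1 in 20 sets. Here 7 sets met it, but each mixes n and o libraries, which differ for many of the genes, and the sets share libraries, so how many chance would give is not known. Vehicle o1 was the highest library of its group in 3 of them. Myh6, the cardiac myosin, had 123.4 CPM there against 5.48 in the next library, Tnni3, cardiac troponin I, had 15.4 against 2.09, and Mb, myoglobin, had 10.2 against 1.00. In the E2 group, o2 was the highest for Ryr2, the calcium release channel, with 314.8 CPM against 73.1, and for Tnnt3, fast troponin T, with 7.48 against 2.19. E2 o1 was the highest for Casq2, the cardiac calsequestrin, with 1.46 CPM against 0.616, and E2 n1 was the lowest for Tnni3, with 0.231 CPM against 2.20.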

How the results depend on the processing

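For E2 against vehicle in aorta, no member was called with DESeq2, other size factors, no filter, a batch of 2 levels or the replicate block; the pairing behind the block changed no call among the 31 genes. In o libraries alone, with o1 and o2 as batch levels, 4 members were called lower, and in n libraries alone, without a batch term, 0. Signs turned for Myh6 with DESeq2 (0.15) and for Mb with a batch of 2 levels (−0.34), with the replicate block (−0.028) and in o libraries (−0.98), where Ryr2 also turned (−0.017). In n libraries alone they turned for Myh6 (2.08), Myl7 (0.68), Actc1 (0.66), Tnnt2 (0.19), Tnni3 (0.20), Tnnc1 (0.34) and Casq1 (−0.082). Leaving out a suffix or a library gave 0 to 1 member called lower, the 1 being Ttn without n2 (−1.46, adjusted p 0.0365, edgeR). Over these settings the log2 difference ranged between −3.23 and 1.14 for Myh6, −1.44 and 0.35 for Myl7, −1.39 and 0.23 for Actc1, −1.13 and 0.12 for Tnnt2, and −1.47 and 0.29 for Tnni3. It ranged between −0.72 and 0.050 for Tnnc1, −0.091 and 0.36 for Ryr2, −0.66 and 1.20 for Mb, and −0.33 and 0.13 for Eno3. The aorta minus liver value of Ryr2 ran from −1.51 to 3.86.

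For aorta over liver with E2, 9 members were called higher and 1 lower with no filter, 1 lower with the replicate block, 1 lower in o libraries alone and 4 lower in n libraries alone; leaving out a suffix gave 4 to 8 higher and 1 to 2 lower. With vehicle, 11 were called higher with no filter, 8 higher and 0 lower in o libraries alone, and 3 higher and 2 lower in n libraries alone. For n over o libraries, 2 were called higher with no filter, and leaving out a suffix or library gave 1 to 3 higher and 4 to 12 lower; no paired analysis was possible for it because the suffix lies within a letter. Settings with fewer libraries or no filter test other numbers of genes; beyond that, the cause was not tested. Depth limits most the 12 untested members, with 64 counts or fewer over 8 aorta libraries.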
